A study of Mus musculus with 6 samples.

Results

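Glycolysis turns glucose into pyruvate in the cytosol, and lactate dehydrogenase can then reduce pyruvate to lactate, which leaves the cell through proton-linked carriers. Here 10 mouse genes along that route were followed, from the glucose transporter of the plasma membrane to the lactate exporter: Slc2a1, Hk1, Hk2, Pfkl, Aldoa, Gapdh, Eno1, Pkm, Ldha and Slc16a3. They were chosen by name, with earlier results of these data known. All 10 were among the 13931 genes listed in the deposited tables and among the 12326 genes tested. The alveolar type 2 (AT2) cell, the surfactant-making cell of the lung, is known to use lactate as well as glucose as fuel, and leukocytes are known for high glycolytic rates once activated.

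The libraries were made from AT2 preparations of C57BL/6 mice. The PBS group (titled sham) holds 3 libraries from mice exposed repeatedly to PBS, and the bleomycin group (titled mBLM) holds 3 libraries from mice exposed repeatedly to bleomycin, a drug that breaks DNA, at 1 U/kg. The series text gives 3 mice per group. The sources used here do not give the age, the route, number and spacing of the exposures, the time of harvest or the method of isolation.

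Values are FPKM (fragments scaled by transcript length and by the mapped fragments of the library), summed over the transcripts of a gene, so genes can be compared per length. The listed FPKM summed to between 253146 and 300697 per library, and the sequencing depth behind them is unknown. Preparations of the groups differed in their cell type markers. Of 12 AT2 markers 11 fell, and their summed level was 19077 to 27481 FPKM with PBS and 3805 to 10687 with bleomycin. Of 10 pan-leukocyte markers 9 rose, with sums of 76.1 to 105 FPKM and of 1186 to 1705. All 11 tested T and NK cell markers, all 7 tested neutrophil markers and 11 of 12 endothelial markers rose as well, while 4 of 10 fibroblast and smooth muscle markers fell and none rose. Rises were also called for all 8 B and plasma cell, 7 of 10 alveolar macrophage, 7 of 9 tested monocyte and recruited macrophage, 6 of 8 proliferation, 4 of 10 airway and 2 of 5 tested erythroid markers, and a fall for 1 of 10 alveolar type 1 markers. Of all these markers, Cldn5 of endothelium and Ms4a7 of macrophages were listed at 0 in every PBS library. In such bulk samples, fewer cells of a type and less RNA per cell cannot be told apart, and the part of these markers in the results that follow was not tested.

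**Figure D1:**
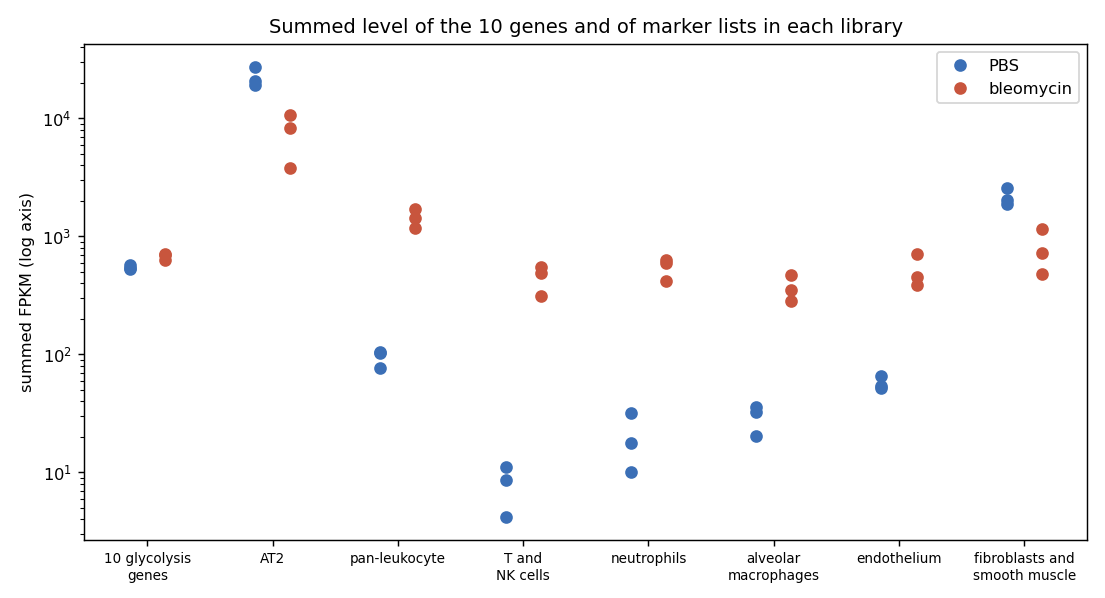
Summed FPKM (log axis) of the 10 glycolysis genes and of 7 marker lists, with 1 point per library, PBS on the left and bleomycin on the right of each pair. The sum of the 10 genes lay between 527 and 573 with PBS and between 631 and 707 with bleomycin, while the leukocyte and endothelial sums lay far higher and the AT2 sum lower with bleomycin.

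The comparison of bleomycin with PBS asks how the transcripts of the route differ after repeated injury. Of the 10 genes, 5 rose after bleomycin and none fell: Slc16a3, Eno1, Slc2a1, Gapdh and Hk1. The other 5, Pkm, Aldoa, Pfkl, Ldha and Hk2, did not pass the test (limma on log2(FPKM + 1), Benjamini-Hochberg adjusted p under 0.05). Among all 12326 tested genes 22.5% were called by the same rule, 15.2% as higher and 7.34% as lower. The median log2 fold change was 0.52 over the 10 genes and 0.09 over all tested genes. The libraries of the groups did not overlap for 6 of the 10 genes, all higher with bleomycin, against 43.6% of all tested genes, 27.2% higher and 16.4% lower. Scaling the libraries to equal medians moved the median of all genes by -0.17 and the share of rises among the calls from 67.4% to 50.2%, and 4 of the 10 genes then rose. Without bleomycin replicate 2, 3 of the 10 rose.

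**Figure D2:**
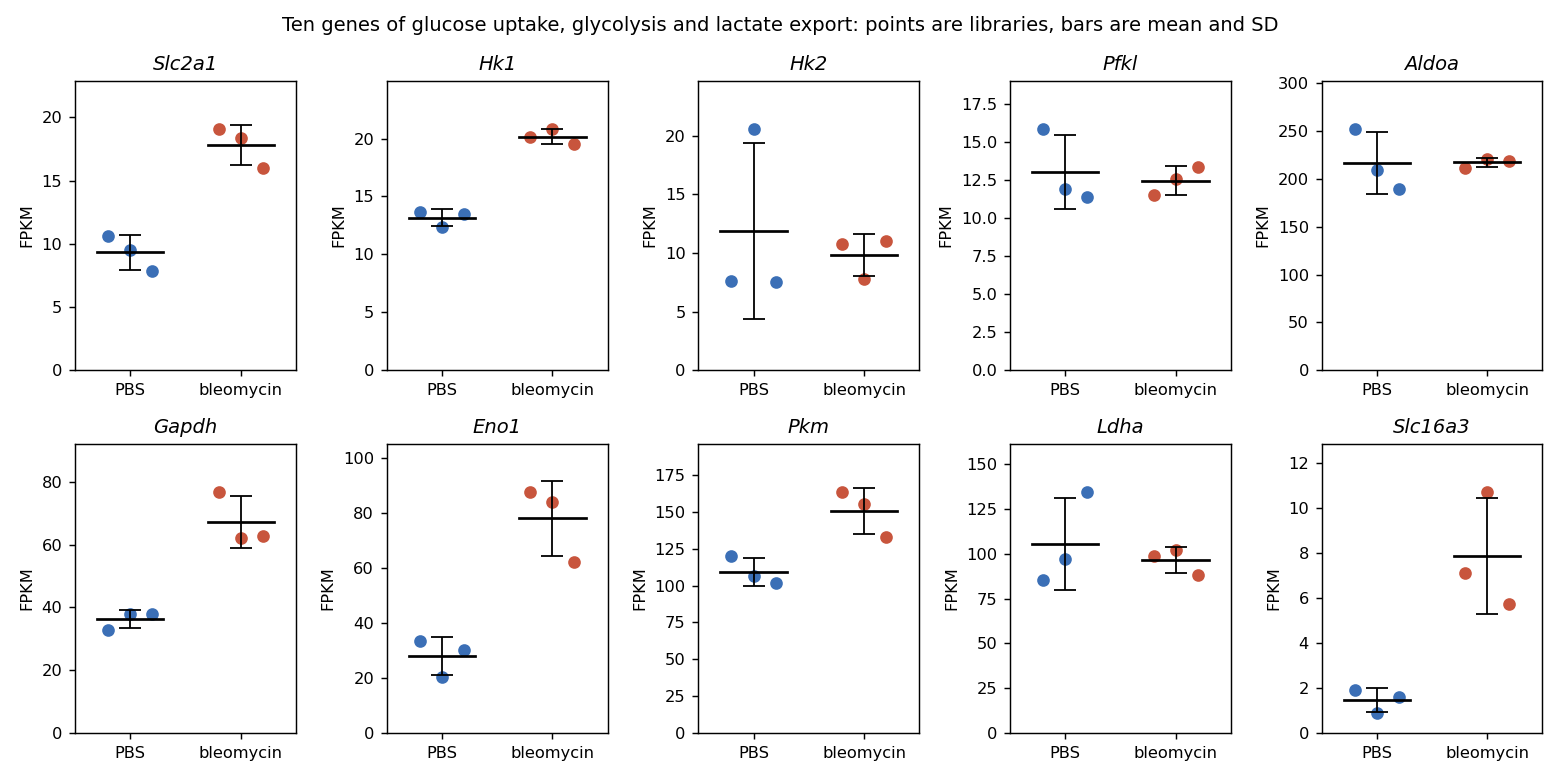
FPKM of each of the 10 genes (linear axes from 0), with 1 point per library, a line at the group mean and bars of 1 SD, n = 3 per group. The points of the groups are apart for Slc2a1, Hk1, Gapdh, Eno1, Pkm and Slc16a3 and overlap for Hk2, Pfkl, Aldoa and Ldha.

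Within the PBS libraries Aldoa had the highest level of the 10 genes (217 ± 32.2 FPKM, mean ± SD, n = 3), followed by Pkm (109 ± 9.37) and Ldha (106 ± 25.8), whose ranges overlapped each other. Gapdh (36.3 ± 2.90) and Eno1 (28.0 ± 6.81) came next, again with overlapping ranges. Hk1, Pfkl, Hk2 and Slc2a1 lay between 9.33 and 13.2 FPKM on average, each overlapping its neighbour, and Slc16a3 was lowest with 1.47 ± 0.529. With bleomycin the first 3 places were the same, but Eno1 (78.0 ± 13.7) stood before Gapdh (67.2 ± 8.34), with overlapping ranges, and Slc2a1 (17.8 ± 1.59) stood above Pfkl (12.5 ± 0.933) and Hk2 (9.85 ± 1.79).

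Gapdh is widely used as a reference gene, and its level per length was below that of Aldoa, Pkm and Ldha in each of the 6 libraries. Of the 50-base windows of its main transcript, 82.5% also occur in transcripts of 222 other genes in GENCODE M21. For Eno1 this share was 72.2%, for Pkm 34.4%, for Ldha 19.1% and for Aldoa 13.9%. It was 2.55% for Hk1, where the other gene is the antisense Hk1os, 1.74% for Slc2a1, 0.0543% for Pfkl, and 0% for Hk2 and Slc16a3. The sources used here do not say how reads that match several places were counted, so the levels of Gapdh and Eno1 are uncertain in this respect.

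Slc2a1 encodes GLUT1, the basal glucose transporter of many cell types (ENSMUSG00000028645.11, mm10 chromosome 4, 119108711 to 119137983). PBS replicates 1, 2 and 3 had 10.6, 9.50 and 7.86 FPKM of it, against 19.1, 18.3 and 16.0 in bleomycin replicates 1, 2 and 3, and values of other genes follow the same order. Every bleomycin library was above every PBS library. The rise was 0.87 ± 0.17 (log2 fold change ± SE, limma adjusted p = 0.0137), and without bleomycin replicate 2 the adjusted p was 0.052.

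The hexokinases trap glucose in the cell as glucose 6-phosphate. Hk1, the broadly expressed form (mm10 chromosome 10, 62268855 to 62340542), measured 13.7, 12.3 and 13.5 FPKM with PBS and 20.1, 20.8 and 19.6 with bleomycin. Its groups were well apart and narrow, and the rise was 0.58 ± 0.13 (limma adjusted p = 0.0259). That call was lost with equal medians (adjusted p = 0.0685). It was also lost when PBS replicate 2, PBS replicate 3, bleomycin replicate 1 or bleomycin replicate 2 was left out (adjusted p 0.0673 to 0.0902). Hk2, the inducible form known from muscle, fat and tumours (mm10 chromosome 6, 82725025 to 82774454), measured 7.59, 20.5 and 7.55 FPKM with PBS and 10.7, 7.79 and 11.0 with bleomycin. Its highest library was PBS replicate 2, and its log2 fold change had a 95% interval of -1.04 to 0.81 (limma adjusted p = 0.859). Without PBS replicate 2 the value was 0.33 and without bleomycin replicate 2 it was 0.03 (adjusted p 0.346 and 0.976), so the sign of Hk2 turned when either was left out.

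Pfkl encodes the liver-type subunit of phosphofructokinase, the enzyme of the committed step (mm10 chromosome 10, 77986947 to 78009807). It measured 15.8, 11.9 and 11.3 FPKM with PBS and 11.5, 12.5 and 13.4 with bleomycin, so the groups overlapped. The 95% interval of its log2 fold change ran from -0.47 to 0.37 (limma adjusted p = 0.872). Aldoa encodes aldolase A, which splits fructose 1,6-bisphosphate (mm10 chromosome 7, 126795234 to 126808905). It measured 252, 209 and 189 FPKM with PBS and 212, 221 and 219 with bleomycin. The bleomycin libraries lay inside the range of the PBS libraries, with an interval of -0.40 to 0.42 (limma adjusted p = 0.967).

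Gapdh oxidises glyceraldehyde 3-phosphate and makes the NADH that lactate dehydrogenase uses (ENSMUSG00000057666.18, mm10 chromosome 6, 125161854 to 125165773). It measured 32.9, 37.9 and 38.0 FPKM with PBS and 76.8, 62.0 and 62.7 with bleomycin. The lowest bleomycin library was well above the highest PBS library. Gapdh rose by 0.87 ± 0.16 (limma adjusted p = 0.0104), and leaving out any 1 library kept the call (adjusted p 0.0204 to 0.0349).

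Eno1 encodes alpha-enolase, which makes phosphoenolpyruvate (ENSMUSG00000063524.13, mm10 chromosome 4, 150236952 to 150248879). It measured 33.5, 20.4 and 30.1 FPKM with PBS and 87.6, 84.0 and 62.2 with bleomycin, the means differing 2.78-fold. All 3 bleomycin libraries stood above all 3 PBS libraries. The rise was 1.46 ± 0.24 (limma adjusted p = 0.00703), and the call held without any 1 library (adjusted p 0.0106 to 0.0296). Its near-identical copy Eno1b measured 7.16 ± 0.979 FPKM with PBS and 18.7 ± 3.01 with bleomycin, and rose by 1.27 ± 0.18 (limma adjusted p = 0.00399). Eno1 and Eno1b share long stretches, so the split of reads between them is uncertain. Summed as 1 gene, a choice made after the data were seen, the pair rose by 1.44 ± 0.22 (limma adjusted p = 0.00535).

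Pkm encodes pyruvate kinase, the last step to pyruvate (mm10 chromosome 9, 59656368 to 59679375). It measured 119.9, 107 and 102 FPKM with PBS and 164, 155 and 133 with bleomycin. The groups did not overlap, but the gene did not pass, with a log2 fold change of 0.46 ± 0.16 (95% interval 0.07 to 0.84, limma adjusted p = 0.0884). Pkm passed with quantile normalization (adjusted p = 0.0453) and with library weights (0.0413), while equal medians lowered its log2 fold change to 0.29 (0.239).

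Splicing gives Pkm a pair of forms that carry either of 2 mutually exclusive exons of 167 bases: M1, known from adult muscle and brain, and M2, known from lung and proliferating cells. Both exons are shown because the deposited transcripts of Pkm are told apart by them. The M1 exon lies at chr9:59675029-59675195 and the M2 exon at chr9:59675568-59675734 (GRCm38, plus strand, from the GENCODE M21 transcripts). Capitals mark the 64 positions at which the exons differ when laid side by side, and the other 103 are equal.
Pkm M1 exon: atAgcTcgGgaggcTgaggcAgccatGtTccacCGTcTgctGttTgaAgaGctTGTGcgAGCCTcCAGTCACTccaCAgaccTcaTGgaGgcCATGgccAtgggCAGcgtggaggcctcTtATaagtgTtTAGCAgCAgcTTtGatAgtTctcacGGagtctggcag
Pkm M2 exon: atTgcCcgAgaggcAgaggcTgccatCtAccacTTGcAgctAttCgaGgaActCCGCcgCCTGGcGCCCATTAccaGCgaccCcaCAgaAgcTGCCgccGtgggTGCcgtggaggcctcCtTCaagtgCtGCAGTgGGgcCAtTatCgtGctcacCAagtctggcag

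The transcript with the M1 exon held 18.1%, 25.1% and 19.99% of Pkm FPKM in PBS replicates 1, 2 and 3 and 10.6%, 25.6% and 13.3% in bleomycin replicates 1, 2 and 3. The M2 transcript held the rest and was the larger in all 6 libraries. The M1 share averaged 21.1 ± 3.61% with PBS and 16.5 ± 8.02% with bleomycin, and the groups overlapped (exact permutation test, two-sided p = 0.5, n = 3 per group). With 3 libraries against 3, the smallest p this test can give is 0.1. The M1 transcript has another version number in GENCODE M21 than in the deposited files.

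**Figure D3:**
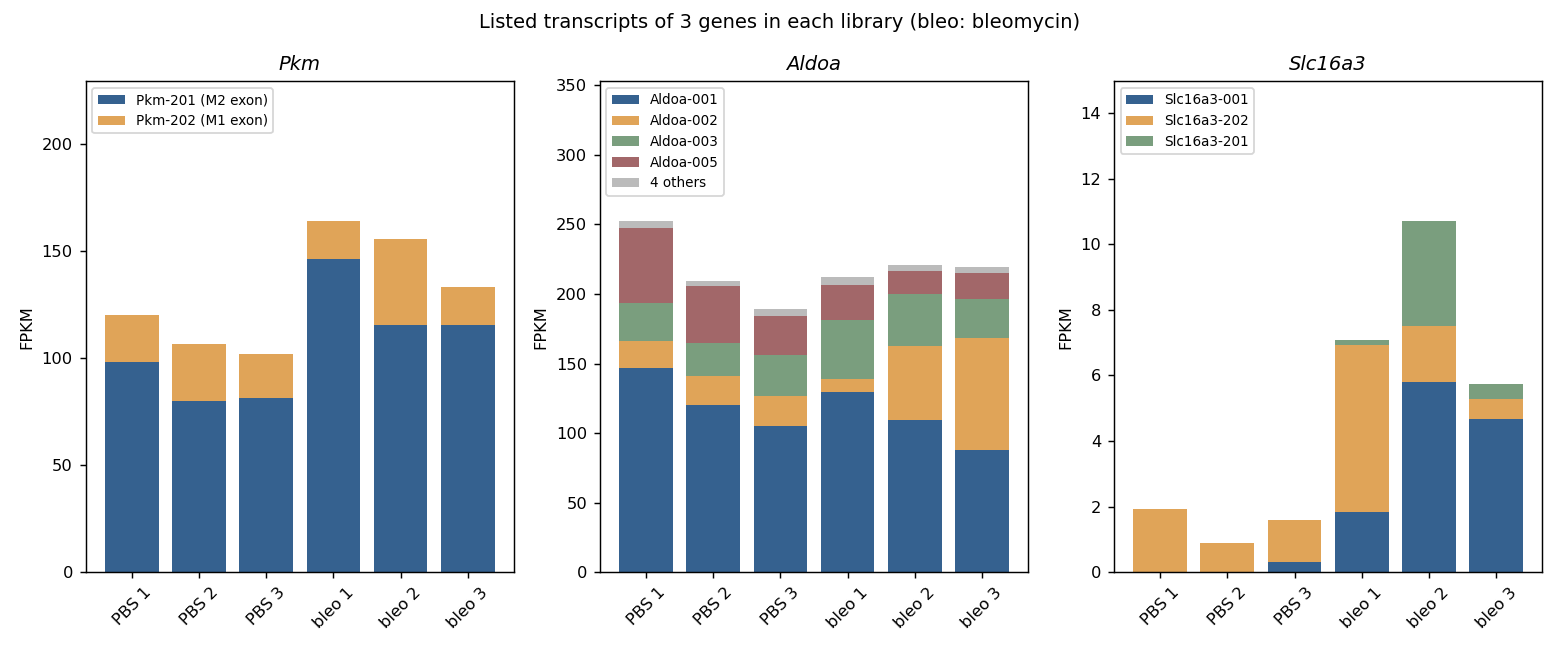
FPKM (linear axis from 0) of the listed transcripts of Pkm, Aldoa and Slc16a3, stacked for each of the 6 libraries. The M2 transcript makes up most of Pkm in every library, and the Slc16a3 transcripts with the highest share differ between libraries.

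Ldha encodes the muscle-type subunit of lactate dehydrogenase, which favours lactate (mm10 chromosome 7, 46845839 to 46855627). It measured 85.2, 97.2 and 135 FPKM with PBS and 98.7, 102 and 88.2 with bleomycin. Its highest library was PBS replicate 3, the groups overlapped, and the log2 fold change had a 95% interval of -0.60 to 0.39 (limma adjusted p = 0.744). Ldhb, the heart-type subunit that favours pyruvate, measured 117, 119.7 and 65.7 FPKM with PBS and 68.0, 59.1 and 37.8 after bleomycin (log2 fold change -0.85 ± 0.32, limma adjusted p = 0.103). Within a library, the ratio of Ldha to Ldhb was 0.727, 0.812 and 2.05 with PBS and 1.45, 1.73 and 2.33 with bleomycin, so PBS replicate 3 lay among the bleomycin libraries.

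Slc16a3 encodes MCT4, a carrier known for lactate export from highly glycolytic cells (ENSMUSG00000025161.16, mm10 chromosome 11, 120948480 to 120960868). It measured 1.92, 0.886 and 1.59 FPKM with PBS and 7.09, 10.7 and 5.74 with bleomycin, a 5.35-fold difference of means. The lowest bleomycin library was above the highest PBS library. Slc16a3 rose by 1.83 ± 0.28 (limma adjusted p = 0.00519), the largest log2 fold change of the 10 genes at this pseudocount, and kept its call without any 1 library (adjusted p 0.00882 to 0.0209). With a pseudocount of 5 its value was 0.97, below the 1.34 of Eno1, and with one of 0.1 it was 2.36. Of its 3 listed transcripts, the one largest with PBS held 93.2 ± 11.8% of the gene's FPKM with PBS and 32.8 ± 33.6% with bleomycin, from low values; it was picked by its PBS share, so these shares are a description.

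Slc16a1 encodes MCT1, the carrier that moves lactate in either direction, and measured 13.0, 16.6 and 13.4 FPKM with PBS and 11.6, 10.9 and 9.37 after bleomycin (log2 fold change -0.40 ± 0.17, limma adjusted p = 0.139). Within a library, the ratio of Slc16a3 to Slc16a1 was 0.148, 0.0535 and 0.119 with PBS and 0.614, 0.981 and 0.613 with bleomycin. On the log2 scale that ratio was higher by 2.87 with bleomycin, with no overlap (exact permutation test, two-sided p = 0.1, n = 3 per group). Adjusted over the 6 paralog measures tested, p was 0.15. Bsg encodes basigin, the partner that brings MCT1 and MCT4 to the membrane, and it went the other way than Slc16a3. It measured 207, 177 and 169 FPKM with PBS and 112, 122 and 94.2 with bleomycin, and fell by 0.75 ± 0.17 on the log2 scale (limma adjusted p = 0.0261). The call of Bsg was lost without any 1 of the 6 libraries (adjusted p 0.0505 to 0.0697).

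**Figure D4:**
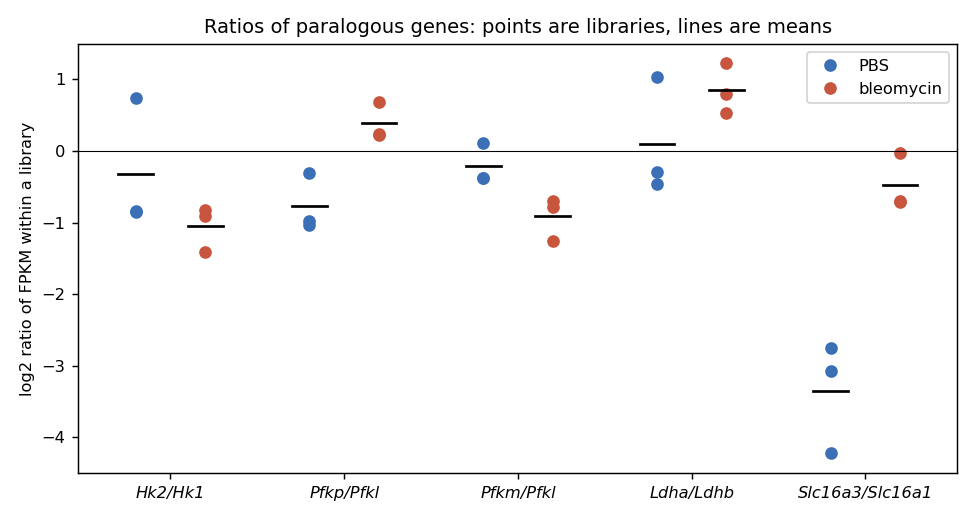
log2 ratio of FPKM of paralogous genes within each library (points) with group means (lines), PBS on the left and bleomycin on the right of each pair. The groups are apart for Pfkp/Pfkl, Pfkm/Pfkl and Slc16a3/Slc16a1 and overlap for Hk2/Hk1 and Ldha/Ldhb.

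Paralogs of the first steps were measured beside the 10 genes. Slc2a3, the high-affinity transporter GLUT3 known from neurons and leukocytes, was listed at 0 in PBS replicate 1, reached 1.11 and 0.753 FPKM in the other PBS libraries, and 6.88, 4.42 and 8.69 after bleomycin (limma adjusted p = 0.00554). Slc2a6 had a listed value of 0 in each PBS library and 2.23, 2.27 and 2.18 FPKM after bleomycin (limma adjusted p = 0.000463). Both thus had every bleomycin library above every PBS library, at levels below those of Slc2a1. Hk3, a hexokinase known from myeloid cells, measured 0.304, 0.186 and 0.169 FPKM with PBS and 4.05, 2.36 and 21.2 after bleomycin (limma adjusted p = 0.0363). Hk3 made up 1.41%, 0.563% and 0.796% of the summed FPKM of Hk1, Hk2 and Hk3 with PBS. With bleomycin that share was 11.6%, 7.62% and 40.9%, the last in bleomycin replicate 3. The call of Hk3 was lost without any 1 PBS library or without bleomycin replicate 1 (adjusted p 0.0672 to 0.0977). It was also lost with a pseudocount of 5 (log2 fold change 1.21, adjusted p = 0.0986) and with quantile normalization (0.0669). The pan-leukocyte sum was 1705, 1186 and 1437 FPKM in bleomycin replicates 1, 2 and 3. For the same libraries, the monocyte and recruited macrophage sum was 186, 136 and 194 FPKM. Sums were 627, 421 and 594 FPKM for neutrophil markers and 470, 354 and 286 FPKM for alveolar macrophage markers. The part of these markers in Hk3 was not tested.

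Phosphofructokinase is a tetramer of liver, muscle and platelet-type subunits. Pfkp, the platelet type, measured 8.01, 5.80 and 9.19 FPKM with PBS and 18.5, 14.7 and 15.8 with bleomycin, a rise of 1.01 ± 0.20 (limma adjusted p = 0.0154). Its call was lost without bleomycin replicate 1 (adjusted p = 0.0538). Pfkm, the muscle type, measured 12.2, 9.20 and 12.3 FPKM with PBS and 4.81, 7.25 and 8.23 after bleomycin (log2 fold change -0.67 ± 0.23, limma adjusted p = 0.082). In every PBS library Pfkp lay below Pfkl, at a ratio of 0.506, 0.486 and 0.810, and in every bleomycin library above it, at 1.61, 1.17 and 1.18. On the log2 scale the ratio of Pfkp to Pfkl was higher by 1.16 and that of Pfkm to Pfkl was lower, by -0.70 (exact permutation tests, two-sided p = 0.1 each and 0.15 adjusted over 6, n = 3 per group). The ratio of Hk2 to Hk1 overlapped between the groups (two-sided exact p = 0.3).

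Of 33 other tested genes of glucose uptake, glycolysis, its bypass and lactate transport, from 47 listed, 6 rose, 3 fell and 24 did not pass, with a median log2 fold change of 0.09. These 9 of 33 stand beside 22.5% of all tested genes, a share close to theirs. Without PBS replicate 2, PBS replicate 3 or bleomycin replicate 1, 4 of the 33 rose and none fell, and the calls over all genes were then 1895, 1782 and 1843, from 2776. Beside Slc2a3, Slc2a6, Hk3, Pfkp and Eno1b, the urate and sugar transporter gene Slc2a9 rose, from 0.567 ± 0.0675 to 1.77 ± 0.292 FPKM. Beside Bsg, the transporter gene Slc2a10 and the hexokinase-domain gene Hkdc1 fell, the latter from 7.29 ± 2.01 to 2.74 ± 1.03 FPKM (log2 fold change -1.16 ± 0.28, limma adjusted p = 0.0281). The call of Slc2a9 was lost without PBS replicate 2 or 3, that of Slc2a10 without any 1 library but bleomycin replicate 3, and that of Hkdc1 when PBS replicate 2, PBS replicate 3, bleomycin replicate 1 or bleomycin replicate 3 was left out. Slc2a9 was also lost with quantile normalization (log2 fold change 0.39, adjusted p = 0.149). Slc2a10 was also lost with a pseudocount of 0.1, with FPKM scaled to a common sum and with the largest transcript (adjusted p 0.0502, 0.0589 and 0.0525).

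Of the enzymes between those steps, Gpi1, which interconverts glucose and fructose 6-phosphate, measured 42.7 ± 5.40 FPKM with PBS and 62.2 ± 7.32 after bleomycin (log2 fold change 0.53 ± 0.17, limma adjusted p = 0.0666). Tpi1, of triose phosphate isomerase, measured 59.6 ± 6.35 and 57.3 ± 0.164 FPKM (limma adjusted p = 0.835). Pgk1, of the first step that yields ATP, measured 17.9, 21.2 and 20.7 FPKM with PBS and 37.1, 22.4 and 19.2 with bleomycin, where bleomycin replicate 1 stood alone. Pgam1, the mutase gene, ranged from 11.1 to 38.6 FPKM with PBS and from 22.7 to 55.3 after bleomycin (limma adjusted p = 0.439). Among the paralogs Eno3 measured 7.88 ± 1.64 and 12.8 ± 2.31 FPKM (limma adjusted p = 0.0749), Eno2 had a limma adjusted p of 0.953 and Aldoc one of 0.904. Pfkfb3, which makes the activator fructose 2,6-bisphosphate, measured 16.6, 15.0 and 15.6 FPKM with PBS and 7.48, 8.39 and 14.9 after bleomycin (limma adjusted p = 0.128). Its bleomycin replicate 3 lay close to the PBS libraries, and without it the adjusted p was 0.0163.

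**Figure D5:**
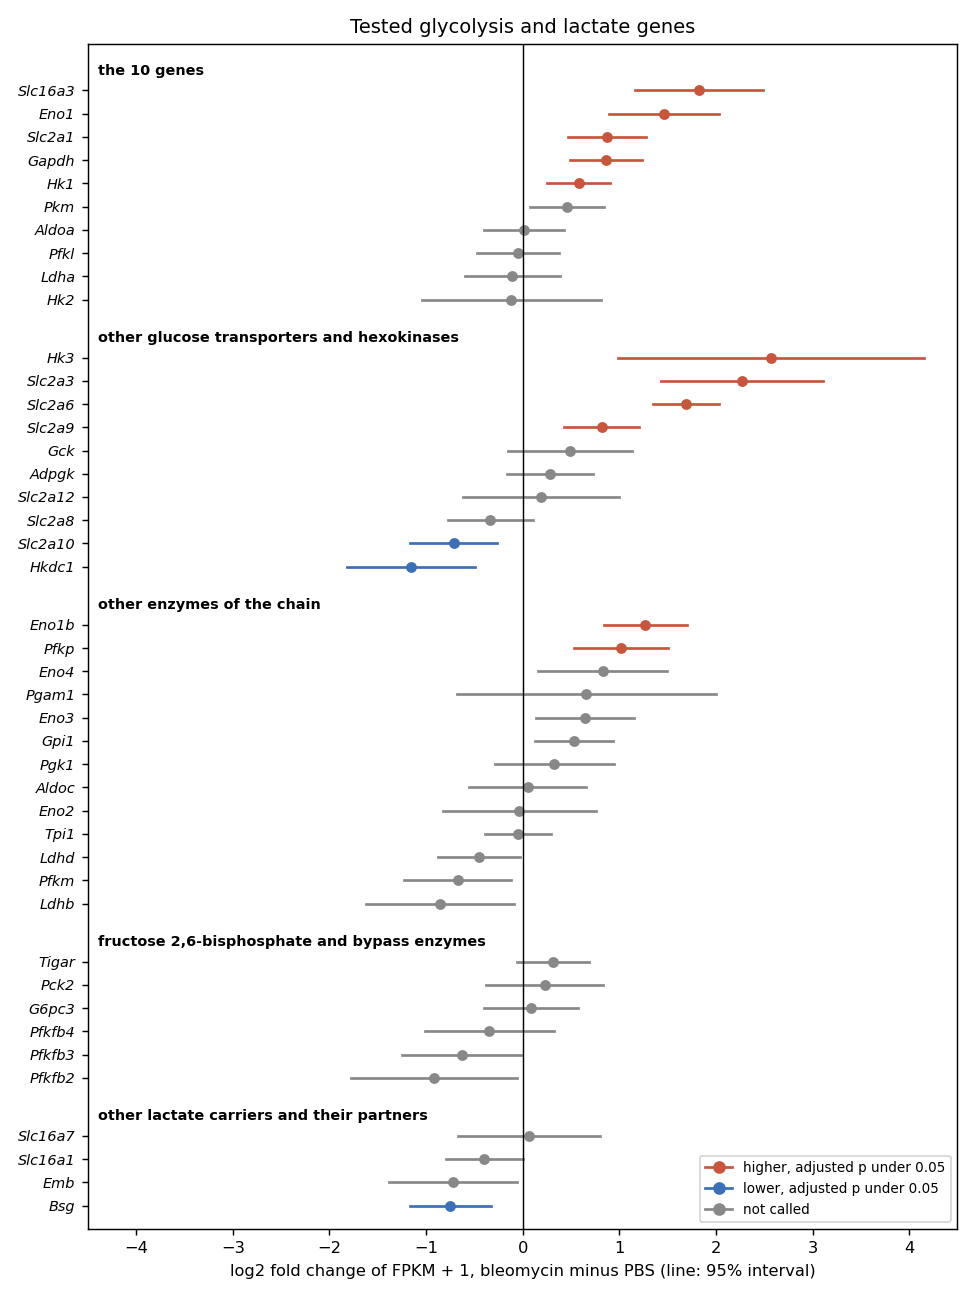
log2 fold change of FPKM + 1, bleomycin minus PBS, with 95% intervals, for the 10 genes and the 33 other tested genes by group (red, higher; blue, lower; grey, not called). The 5 called of the 10 genes run from 0.58 for Hk1 to 1.83 for Slc16a3, and the intervals of Aldoa, Pfkl, Ldha and Hk2 include 0.

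Pyruvate that is not reduced to lactate enters the mitochondrion, where pyruvate dehydrogenase oxidises it under restraint by the kinases Pdk1 to Pdk4. None of 14 tested genes of this branch passed in limma, and 4 had an unadjusted p under 0.05. The median log2 fold change was -0.29, against 0.09 over all tested genes. The carrier gene Mpc1 measured 58.3 ± 6.05 FPKM with PBS and 80.4 ± 5.62 after bleomycin (limma adjusted p = 0.0707), and Pdk4 6.10 ± 1.60 and 3.08 ± 1.01 (0.0662). Pdk1 ranged from 7.23 to 7.71 FPKM with PBS and from 3.39 to 11.9 with bleomycin. With equal medians 3 of the 14 fell: Pdk4 and, named here because of that result, Pdhx and Pdk2 (limma adjusted p = 0.0396, 0.0383 and 0.0269).

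The pentose phosphate pathway branches from glucose 6-phosphate and supplies NADPH and ribose. Of its 8 tested genes 1 rose and 1 fell, a share near the 22.5% called over all tested genes. Taldo1, the transaldolase gene, rose from 53.8 ± 7.01 to 97.1 ± 15.7 FPKM (log2 fold change 0.84 ± 0.18, limma adjusted p = 0.0211). H6pd, of the hexose 6-phosphate dehydrogenase in the endoplasmic reticulum, fell from 26.3 ± 4.71 to 10.8 ± 3.93 FPKM (-1.25 ± 0.29, limma adjusted p = 0.0247). Without PBS replicate 1 or 2 neither passed. Without PBS replicate 3 or bleomycin replicate 2 H6pd did not pass, and without bleomycin replicate 1 Taldo1 did not.

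Many glycolysis genes are known targets of the hypoxia-inducible factors, which bind a core of the letters ACGTG or GCGTG. Of 24 tested hypoxia genes outside glycolysis, 2 rose (Ankrd37 and Kdm3a), 3 fell (Adm, Bnip3 and P4ha2) and 19 did not pass, again a share near the 22.5% of all tested genes. The rise of Kdm3a was lost in each of the 6 fits without 1 library (adjusted p 0.0646 to 0.122) and under 6 of 11 other settings. That of Ankrd37 was lost in 5 of those 6 fits, all but the one without bleomycin replicate 3, and under 6 of 10 other settings. Bnip3, a mitophagy receptor gene, measured 19.8, 18.8 and 18.3 FPKM with PBS and 9.66, 11.8 and 10.01 after bleomycin (log2 fold change -0.80 ± 0.15, limma adjusted p = 0.0111). Hif1a, the oxygen-regulated subunit, measured 18.8 ± 0.576 and 19.6 ± 0.876 FPKM (95% interval -0.26 to 0.37, limma adjusted p = 0.79). Epas1, its paralog, measured 92.0 ± 15.4 and 92.4 ± 26.4 FPKM (limma adjusted p = 0.964). With equal medians the 3 falls passed and no rise did. Leaving out PBS replicate 1, 2 or 3 left 3, 1 and 2 of these genes called, and leaving out bleomycin replicate 1 or 2 left 1 and 2. Bnip3 was called in each fit without 1 library. The fall of Adm was lost in 5 of those 6 fits (adjusted p up to 0.117) and under 2 of 11 other settings. That of P4ha2 was lost in 4 of the 6 fits (adjusted p up to 0.0653) and under 0 of 11 other settings.

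The promoters of the 10 genes were searched for that core on both strands in the 250 bases before the RefSeq start nearest to the main listed transcript. Of the 10 windows 9 held it, against 38.6% of all 32851 RefSeq promoter windows of the same length, and the remaining one was that of Pkm. Called and not called genes both held it. All 250 bases of each window were searched, including those in annotated exons. Such exons cover 208 of the 250 bases of the Pkm window and leave 42 before them. They cover 121 bases of the Hk1 window, where 1 of the 3 matches lies before them, and at most 53 of any other. The Slc16a3 start used lies 587 bases from that of its main listed transcript, the largest such distance of the 10. The E box CACGTG, which contains the core, occurred in 1 of the 10, Ldha, and in 6.02% of all windows. A match of letters is a description and not a site. The 10 windows were not matched to the others for base composition, and the reason for their share with the core was not tested. The stretches of 160 bases come from RefSeq (GRCm38.p6) and end before the annotated exons, with the core in capitals. They are shown for a gene that was not called with 5 matches, Ldha (chr7:46845644-46845803, plus strand), and for 2 that rose, Gapdh (chr6:125165774-125165933, minus strand) and Slc2a1 (chr4:119108551-119108710, plus strand).
Ldha: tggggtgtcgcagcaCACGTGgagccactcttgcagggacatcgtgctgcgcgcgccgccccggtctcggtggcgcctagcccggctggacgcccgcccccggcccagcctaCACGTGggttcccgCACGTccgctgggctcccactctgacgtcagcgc
Gapdh: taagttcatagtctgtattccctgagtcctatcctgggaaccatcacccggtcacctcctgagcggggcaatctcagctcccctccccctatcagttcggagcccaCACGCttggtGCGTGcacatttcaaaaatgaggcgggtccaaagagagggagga
Slc2a1: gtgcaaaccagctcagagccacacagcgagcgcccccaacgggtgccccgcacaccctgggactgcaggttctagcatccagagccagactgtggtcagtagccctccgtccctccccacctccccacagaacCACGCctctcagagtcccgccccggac
The Ldha matches overlap in part, since CACGTG holds the core on either strand. The Slc2a1 window holds a further match outside the stretch.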

How the data were processed

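RNA of 6 AT2 preparations, 3 per group, was sequenced after stranded library synthesis from total RNA, per the labels' protocols. The submitters' processing notes name HISAT2, StringTie, FastQC 0.10.1 and the mm10 build, but the sources used here name no annotation or settings. The authors deposited FPKM per transcript for each library, per the file headers. Whole reads could not be recovered from these values, so the depth is unknown and no count test was run.

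FPKM were summed by gene ID. Genes with at least 1 FPKM in at least 3 of 6 libraries were tested with limma 3.58.1 in R 4.3.3 on log2(FPKM + 1), with a variance trend, no scaling between libraries and Benjamini-Hochberg adjustment over 12326 genes. Fold changes on this scale understate the change of low genes. Ratios and shares within a library were compared by exact permutation tests. The code was tested on simulated data. Alternatives were other pseudocounts, filters, scalings and library weights, the largest transcript per gene, no trend, a replicate block and each library left out. The 10 genes, the pathway lists, the marker lists and the promoter search were chosen with earlier results of these data known. Named genes are the 10, every called gene of the pathway lists, and a fixed set of paralogs and regulators. Sequences are from GENCODE M21 transcripts and the RefSeq promoter table.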

Additional observations from a re-analysis of the deposited data

How the results depend on the processing

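Of the 10 genes, 5 were called with a pseudocount of 0.1 or 5, no filter, a filter of 5 FPKM, listed FPKM scaled to a common sum, the largest transcript, no trend, and Eno1 and Eno1b summed; 4 with equal medians, and 6 with quantile normalization or library weights. Leaving out each library in turn gave 3 to 5 of the 10, 1782 to 2630 of all genes, 4 to 9 of the other glycolysis genes, 0 of the pyruvate genes in every case, 0 to 2 pentose phosphate genes and 1 to 4 hypoxia genes. A filter of 5 FPKM, which tests fewer genes, left 4 other glycolysis genes called. Equal medians and quantile normalization each called 3 pyruvate genes and 3 hypoxia genes, and the largest transcript called 2 hypoxia genes; the cause was not tested. Among values that were never called, the sign of the log2 fold change turned for Aldoa (-0.16 with equal medians, -0.19 with the largest transcript), Aldoc (-0.12 with equal medians, -0.20 with quantile normalization), Hif1a (-0.11 and -0.040 in the same order), Epas1 (0.047 with quantile normalization, 0.012 scaled to a common sum, 0.033 with library weights), and with a pseudocount of 5 for Eno2 (0.0082) and Pdk1 (0.015). Leaving out each library gave ranges across 0 for Hk2 (-0.34 to 0.33), Pfkl (-0.13 to 0.089), Aldoa (-0.080 to 0.13), Ldha (-0.25 to 0.079), Aldoc (-0.15 to 0.24), Tpi1 (-0.12 to 0.026), Eno2 (-0.39 to 0.24), Epas1 (-0.22 to 0.21) and Pdk1 (-0.35 to 0.43). Deviations of same-numbered libraries from their group means correlated at -0.0043, 0.0172 and 0.0391, and those of other pairs at -0.0353 to 0.0209. With 3 libraries per group these values cannot show whether same-numbered libraries were handled together. With the replicate block, 1922 of all genes, 4 of the 10, 8 other glycolysis genes, 0 pyruvate, 2 pentose phosphate and 4 hypoxia genes (0 higher, 4 lower) were called. The block ended the calls of Hk1, Slc2a10, Hk3, Ankrd37 and Kdm3a (limma adjusted p = 0.081, 0.096, 0.0537, 0.0564 and 0.112), and Ldhb passed (0.0294). A block cannot move a difference of means in this balanced design, so the differences of paralog ratios and of the M1 share of Pkm are the same by construction. Without 1 library the M1 share of Pkm differed by -9.11 (without bleomycin replicate 2) to -1.60 percentage points (without bleomycin replicate 1), against -4.54 with all. With 3 libraries per group and unknown depth, low values such as those of Slc16a3 and Slc2a6 with PBS have no counting interval.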
